A study of Mus musculus with 6 samples.

Results

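The genes described here are 10 inflammatory genes linked to degeneration of the intervertebral disc: Il1a, Il1b, Il1rn, Il1rl1, Il6, Il33, Tnf, Lif, Ptgs2 and Nos2. They were taken by symbol from a table of 46095 genes, and all 10 were found there. The cells were primary cultures of mouse nucleus pulposus, the soft core of the disc, at passage 2 and from mice aged 8 weeks. They carried 1 of 3 genotypes of Chsy3, a chondroitin sulfate synthase: wild type, heterozygous or knockout, with 2 libraries each, and all 6 libraries are labelled male. The sources used here do not give the kind of allele, the strain, or whether a genotype's libraries stem from different mice or cultures. The p-values therefore cover the spread of these 6 libraries, which may be technical.

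The interleukin-1 family signals through paired receptors. IL-1 alpha and IL-1 beta bind IL-1R1 and recruit the accessory chain IL-1RAP, and the antagonist encoded by Il1rn occupies IL-1R1 without signalling. IL-33, a nuclear alarmin released by damaged stromal and barrier cells, signals through ST2, the product of Il1rl1, with the same accessory chain, and Il1rl1 also gives a soluble decoy form. IL-6 and LIF share the receptor chain gp130 (Il6st). Ptgs2 encodes the inducible cyclooxygenase of prostaglandin synthesis and Nos2 the inducible nitric oxide synthase. IL-1 and TNF are known in disc degeneration for raising matrix proteases, and both act largely through NF-kB.

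Total counts lay between 29622117 and 33899611 per library. Levels are given as CPM, the counts scaled to a common library size with TMM factors. A floor of 3 counts in a library, a value chosen here, corresponds to 0.0879 to 0.104 CPM. For Chsy3 itself, the wild-type pair gave 284 and 284 counts, the heterozygous pair 167 and 197, and the knockout pair 118 and 76. The cultures held macrophage-like and fibroblast-like genes: Lyz2 was at 7210 ± 124 CPM and Mrc1 at 750 ± 0.678 CPM, and Fn1 at 15400 ± 126 CPM and Col1a1 at 10600 ± 168 CPM, in wild type (SD, n = 2). The defining notochord genes T, Noto and Shh were at 0 in every library, and the 13 nucleus pulposus and notochord markers summed to between 106 and 178 CPM. Of these, Foxf1 was at 24.5 ± 4.39, Col2a1 at 22.8 ± 0.251, Pax1 at 20.1 ± 0.419 and Sox9 at 16 ± 1.05 CPM in wild type (SD, n = 2). Krt19 was at 15.7 ± 1.16, Cd24a at 13.3 ± 0.489 and Car12 at 1.32 ± 0.251 CPM there (SD, n = 2). Acan, Krt8 and Krt18 had 8, 5 and 5 counts over the wild-type pair, and Acan had 0 in the other genotypes. Pax1 and Sox9 had the highest means over all 6 libraries. The Y-linked genes Ddx3y, Uty, Kdm5d and Eif2s3y had 0 counts in both heterozygous libraries and 7.67 to 31.7 CPM in the other 4. Xist lay between 1070 and 1080 CPM in heterozygous and between 650 and 663 CPM elsewhere. The absence of Y-linked counts goes against the male label of the heterozygous libraries, and Xist goes against it in all 6. Sex and genotype thus cannot be told apart in any comparison with the heterozygous libraries. The wild-type and knockout libraries held both Y-linked counts and Xist. Ddx3y lay at 21.5 to 27.3 CPM in wild type and 30.3 to 31.7 in knockout, and Eif2s3y at 15.2 to 16.7 and 19.7 to 21.7. Uty lay at 7.67 to 8.45 and 9.43 to 10.9 CPM, while Kdm5d overlapped, at 10.2 to 12.8 and 11.1 to 12.5. A part of sex in knockout against wild type was not tested. A fit to the 4 wild-type and knockout libraries alone gave the same number of calls, 4, among the genes described here. That fit compares the same libraries as the main fit, so it cannot serve as a check on sex.

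Of the 10 genes, 7 had enough reads for the fit across 16061 genes. In knockout against wild type, 4 of the 7 passed an adjusted p of 0.05 in edgeR's quasi-likelihood test: Il1rn, Il1rl1 and Ptgs2 rose and Il33 fell. Over all genes in the fit 38.0% passed, 19.2% higher and 18.9% lower. In heterozygous against wild type 6 of 7 passed: Il1rl1 rose, and Il1rn, Il6, Il33, Lif and Ptgs2 fell. The share over all genes was 38.9%, with 19.2% higher and 19.7% lower. In knockout against heterozygous 6 of 7 passed, with Il33 lower and the other 5 higher, against 37.1% of all genes, 19.1% higher and 17.9% lower. The median log2 fold change of the 7 was 0.37, -1.03 and 0.99 in this order, beside -0.003, -0.003 and 0.01 over all genes. The comparisons share libraries pairwise and are not independent of each other.

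**Figure D1:**
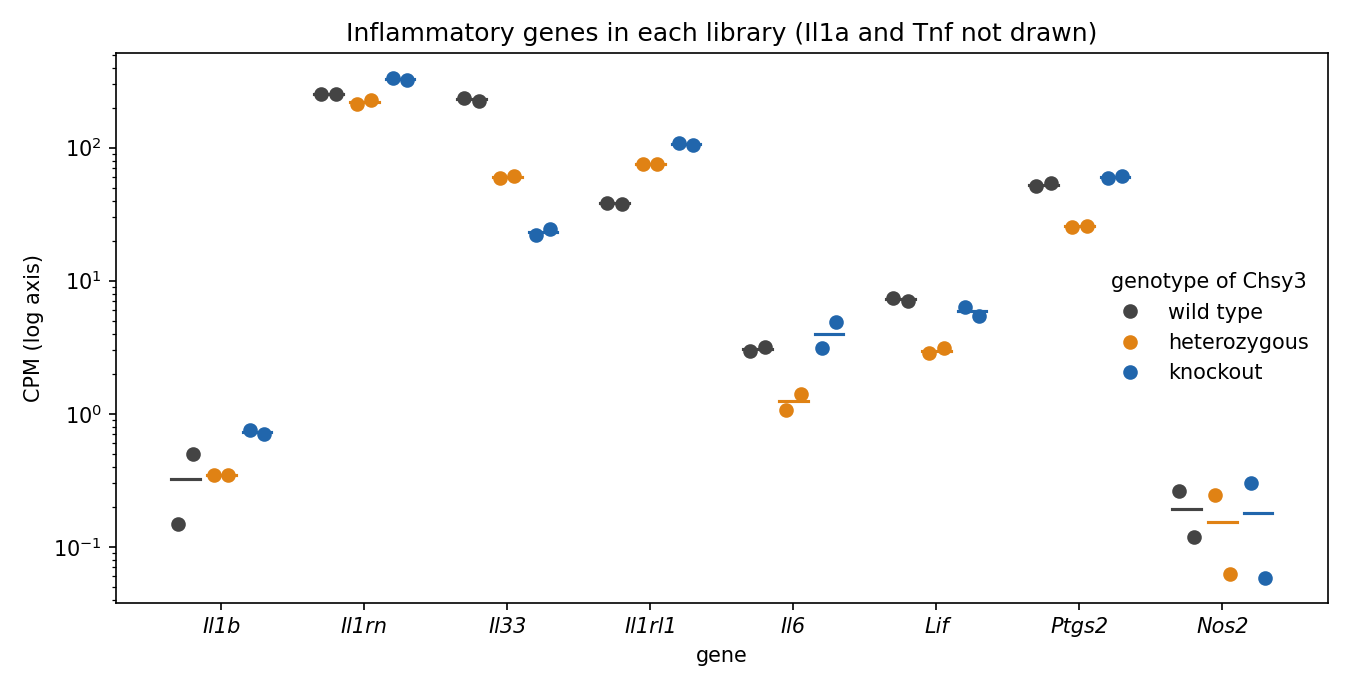
Level of 8 of the 10 genes in each library, as CPM on a log axis; each point is a library, each short line the mean of the 2 libraries of a genotype. Il33 descends from wild type (238 and 223 CPM) to knockout (22.1 and 24.6 CPM) while Il1rl1 ascends, and Il1rn, Il6, Lif and Ptgs2 are lowest in the heterozygous libraries.

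Il33 fell furthest of the 7 in each comparison with wild type. It lies on chromosome 19 from 29925114 to 29960718 (GRCm38, plus strand), and RefSeq gives it 2 start sites. Its counts were 8109 and 7584 in wild type, 1707 and 1944 in heterozygous and 728 and 838 in knockout, or 238 and 223, 59.2 and 61.1, and 22.1 and 24.6 CPM. The 3 genotypes did not overlap, and the heterozygous libraries lay between the others. Knockout was 9.89-fold below wild type, a log2 fold change of -3.31 ± 0.05 (SE; edgeR, adjusted p = 2.75e-38). Heterozygous was 3.83-fold below wild type (log2 -1.94 ± 0.05; edgeR, adjusted p = 2.01e-31), and knockout was 2.58-fold below heterozygous (log2 -1.37 ± 0.06; edgeR, adjusted p = 4.69e-23). In RNA from whole cultures, fewer cells that express a gene and less RNA per cell cannot be told apart.

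Il1rl1, which encodes the IL-33 receptor ST2, went the opposite way. It lies on chromosome 1 from 40429570 to 40465415 (GRCm38, plus strand), also with 2 RefSeq start sites. Its counts were 1307 and 1284 in wild type, 2180 and 2412 in heterozygous and 3582 and 3554 in knockout, or 38.4 and 37.8, 75.6 and 75.8, and 109 and 104 CPM. Again no genotype overlapped another. Il1rl1 rose 2.79-fold in knockout (log2 1.48 ± 0.06, SE; edgeR, adjusted p = 2.21e-25) and 1.99-fold in heterozygous (log2 0.99 ± 0.06; edgeR, adjusted p = 6.79e-19), both against wild type. Knockout was 1.41-fold above heterozygous (log2 0.49 ± 0.05; edgeR, adjusted p = 1.66e-10). The counts are per gene and do not separate the membrane receptor from the soluble form.

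Per kilobase of exon, with exon lengths taken over all transcripts of a gene, the order of ligand and receptor turned over. Il33 stood at 14.8 and 14.1 times the level of Il1rl1 in the wild-type libraries, at 1.87 and 1.93 times in the heterozygous libraries and at 0.485 and 0.563 times in the knockout libraries. Both genes contribute to this change, Il33 by the larger step on the log2 scale. These ratios are a description and were not tested.

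**Figure D2:**
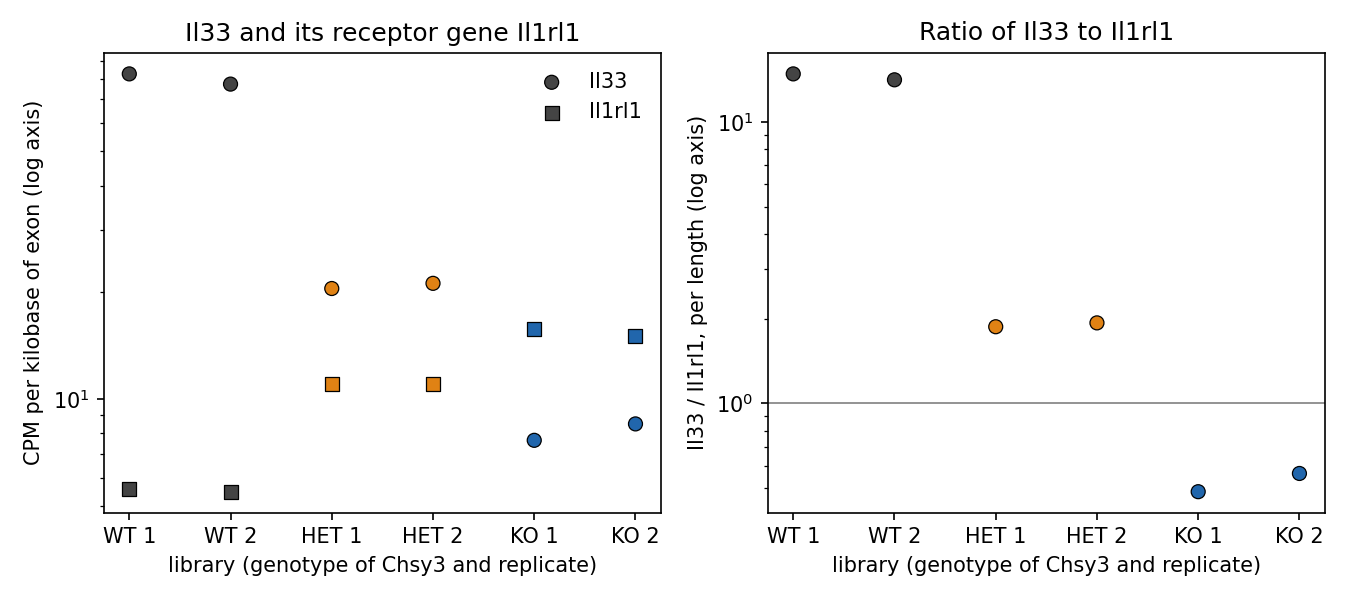
Left, CPM per kilobase of exon (log axis) of Il33 (circles) and Il1rl1 (squares) in the 6 libraries (WT, wild type; HET, heterozygous; KO, knockout); right, their ratio (log axis, line at 1). The ratio runs from 14.8 and 14.1 in wild type to 0.485 and 0.563 in knockout.

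The sequences before the 2 start sites of Il33 and of Il1rl1 are shown because these genes moved in opposite directions across the genotypes and the counts do not say which start was used. They are the 120 bases before each RefSeq start on the plus strand of GRCm38.p6: chr19:29924993-29925112 and chr19:29945670-29945789 for Il33, chr1:40429450-40429569 and chr1:40439509-40439628 for Il1rl1. Capitals mark matches to 2 of the 6 motifs searched, C/EBP (TTGCNNAA) and the TATA box (TATAAA).
Il33 first start: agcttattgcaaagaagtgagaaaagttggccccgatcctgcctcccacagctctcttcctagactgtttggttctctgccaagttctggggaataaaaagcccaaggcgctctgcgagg
Il33 second start: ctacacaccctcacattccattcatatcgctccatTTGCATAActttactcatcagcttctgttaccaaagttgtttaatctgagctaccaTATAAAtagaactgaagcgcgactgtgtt
Il1rl1 first start: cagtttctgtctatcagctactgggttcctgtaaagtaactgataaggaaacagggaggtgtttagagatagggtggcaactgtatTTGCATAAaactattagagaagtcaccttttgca
Il1rl1 second start: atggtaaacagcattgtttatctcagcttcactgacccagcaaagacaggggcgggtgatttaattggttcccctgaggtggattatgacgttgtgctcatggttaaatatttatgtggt

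The second Il33 start and the first Il1rl1 start both hold the letters TTGCATAA, a match to the C/EBP motif, at positions -85 to -78 and -34 to -27 (-1 is the base before the start). The second Il33 start also has a TATA box at -29 to -24, and the first has TATAAA only farther off, at -203 to -198. The second Il1rl1 start has an NF-kB match (GGANNNTCC), GGAATTTCC, at bases 8 to 16 after the start, outside the bases shown. GGANNNTCC occurred in 8.62% of all RefSeq promoter windows. A match to TTGCNNAA or its reverse complement TTNNGCAA occurred in 10.8% of all 32851 RefSeq promoter windows of the same 300 bases, and TATAAA or TTTATA in 13.6%. A match of letters is a description and shows no binding.

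The genes of the IL-1 arm itself were dominated by the antagonist. Il1rn (chromosome 2, 24336853 to 24351494, plus strand) had 8663 and 8663 counts in wild type, 6169 and 7273 in heterozygous and 11011 and 11027 in knockout, or 255 and 255, 214 and 229, and 334 and 323 CPM. The knockout libraries were the highest and the heterozygous the lowest, with no overlap. Il1rn rose 1.29-fold in knockout (log2 0.37 ± 0.03, SE; edgeR, adjusted p = 8.24e-13) and fell by 0.20 ± 0.03 on the log2 scale in heterozygous (edgeR, adjusted p = 2.6e-06), both against wild type. Knockout was 1.48-fold above heterozygous (log2 0.57 ± 0.03; edgeR, adjusted p = 1.51e-18).

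The agonists were near the detection limit. Il1a (chromosome 2, 129299610 to 129309972, minus strand) had 1 count in all 6 libraries together, in knockout library 1. Il1b (chromosome 2, 129364570 to 129371139, minus strand) had 5 and 17 counts in wild type, 10 and 11 in heterozygous, and 25 and 24 in knockout, or 0.147 and 0.50, 0.347 and 0.346, and 0.758 and 0.703 CPM. Both knockout libraries lay above the other 4, but no comparison passed. The log2 fold change of Il1b was 1.17 with a 95% interval from -0.26 to 2.59 in knockout against wild type (edgeR, adjusted p = 0.205). For heterozygous relative to wild type it was 0.10 (-1.43 to 1.62; edgeR, adjusted p = 0.942), and for knockout relative to heterozygous 1.07 (-0.36 to 2.50; edgeR, adjusted p = 0.256). Without wild-type library 1 (5 counts) the difference of knockout from wild type was 0.54 and that of heterozygous from wild type -0.53, and without wild-type library 2 (17 counts) they were 2.28 and 1.21. Both values for Il1b thus rest on which wild-type library is read, and for heterozygous the sign does too. Each interval spans 0 and a 2-fold increase, so at this depth a difference of that size could not be told from none. Per kilobase of exon, Il1rn stood at 597 and 176 times the sum of Il1a and Il1b in wild type, 213 and 228 times in heterozygous, and 146 and 158 times in knockout, and the highest of these ratios rests on 5 reads.

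Il6, Lif and Ptgs2 had their lowest values in the heterozygous libraries, at less than 1/2 of wild type. Il1rn was also lowest there, with a smaller fall of 0.20 on the log2 scale. Ptgs2 (chromosome 1, 150100031 to 150108227, plus strand) had 1742 and 1829 counts in wild type, 730 and 825 in heterozygous and 1946 and 2102 in knockout, or 51.2 and 53.8, 25.3 and 25.9, and 59.0 and 61.6 CPM. No genotype overlapped another. Heterozygous libraries had 2.05-fold less Ptgs2 than wild type (log2 -1.03 ± 0.07, SE; edgeR, adjusted p = 1.7e-16), and knockout had 2.35-fold more than heterozygous (log2 1.24 ± 0.07; edgeR, adjusted p = 4.15e-19). Knockout exceeded wild type by 1.15-fold (log2 0.20 ± 0.06; edgeR, adjusted p = 0.0103). That last call was lost without wild-type library 1 (edgeR, adjusted p = 0.121) and without knockout library 2 (edgeR, adjusted p = 0.115), and the 14 alternatives together gave 0.00435 to 0.121.

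Lif, an IL-6 family cytokine (chromosome 11, 4257557 to 4272514, plus strand), had 252 and 240 counts in wild type, 82 and 99 in heterozygous and 210 and 186 in knockout, or 7.40 and 7.06, 2.84 and 3.11, and 6.37 and 5.45 CPM. The heterozygous libraries lay well below the other 4. Heterozygous libraries had 2.42-fold less Lif than wild type (log2 -1.28 ± 0.20, SE; edgeR, adjusted p = 1.09e-06), and knockout had 1.98-fold more than heterozygous (log2 0.99 ± 0.20; edgeR, adjusted p = 0.000106). Knockout against wild type did not pass, at -0.29 with a 95% interval from -0.67 to 0.09 (edgeR, adjusted p = 0.233).

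Il6 (chromosome 5, 30013114 to 30019981, plus strand) had 101 and 107 counts in wild type, 31 and 45 in heterozygous and 103 and 167 in knockout, or 2.97 and 3.15, 1.07 and 1.41, and 3.12 and 4.89 CPM. The heterozygous libraries were again apart, while wild type and knockout overlapped. Heterozygous libraries had 2.44-fold less Il6 than wild type (log2 -1.29 ± 0.31, SE; edgeR, adjusted p = 0.000643), and knockout had 3.21-fold more than heterozygous (log2 1.68 ± 0.30; edgeR, adjusted p = 1.35e-05). Knockout against wild type gave 0.39 with a 95% interval from -0.16 to 0.95 (edgeR, adjusted p = 0.283). That value lay between 0.03 without knockout library 2 and 0.68 without knockout library 1, so the size of the difference rests on which knockout library is read.

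**Figure D3:**
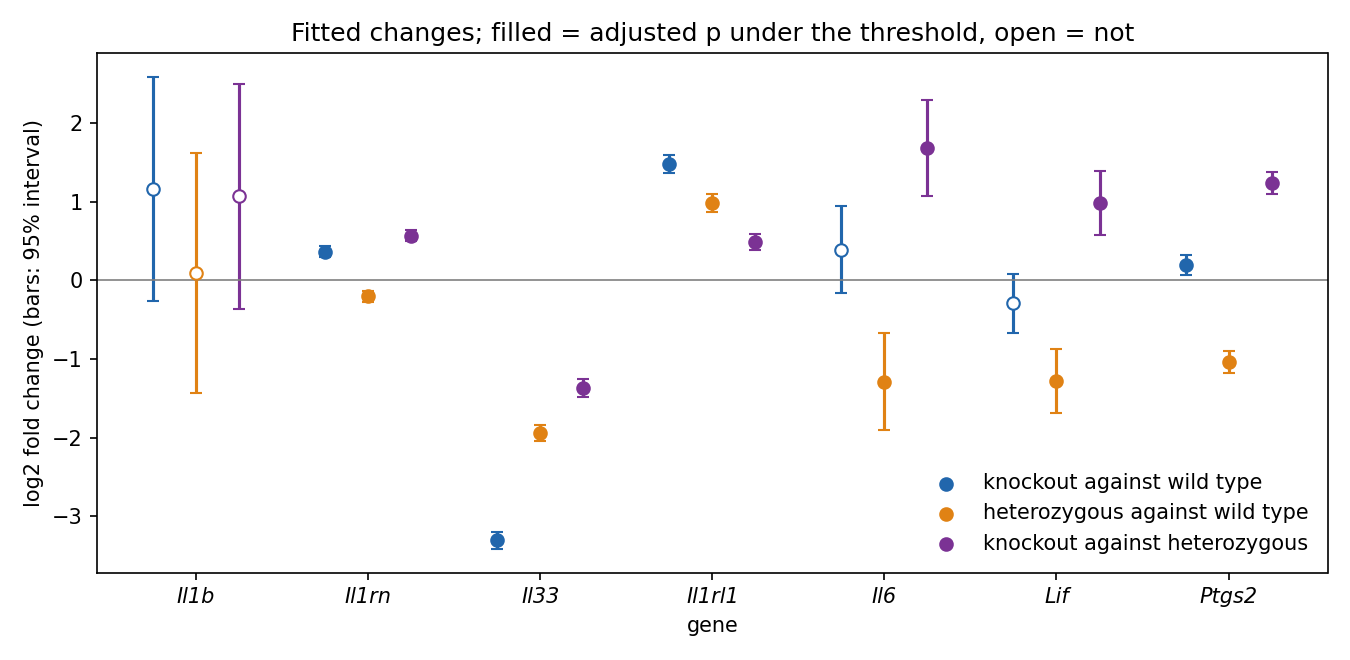
Log2 fold changes of the 7 genes in the fit, with 95% intervals, in the 3 comparisons; filled points passed the threshold and open points did not. Il33 lies lowest in all 3 comparisons, down to -3.31, and the intervals of Il1b are the widest.

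The promoters of Il6, Lif and Ptgs2 are shown because these genes fell more than 2-fold in heterozygous and were lowest there. Those of Il1rn, which fell less, are not shown. They are the 250 bases before each RefSeq start on the plus strand of GRCm38.p6, at chr5:30012864-30013113, chr11:4257318-4257567 and chr1:150099781-150100030. Capitals mark matches to AP-1 (TGANTCA), C/EBP (TTGCNNAA) and NF-kB (GGANNNTCC).
Il6: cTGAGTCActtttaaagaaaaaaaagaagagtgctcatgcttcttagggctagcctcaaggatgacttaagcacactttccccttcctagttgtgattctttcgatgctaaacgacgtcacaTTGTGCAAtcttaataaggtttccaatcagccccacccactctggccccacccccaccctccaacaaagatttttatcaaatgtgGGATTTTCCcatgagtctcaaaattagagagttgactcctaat
Lif: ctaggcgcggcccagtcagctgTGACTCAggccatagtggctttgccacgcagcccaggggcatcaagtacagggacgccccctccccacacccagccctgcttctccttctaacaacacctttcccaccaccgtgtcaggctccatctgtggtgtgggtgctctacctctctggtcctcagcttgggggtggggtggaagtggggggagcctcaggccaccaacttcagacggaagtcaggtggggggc
Ptgs2: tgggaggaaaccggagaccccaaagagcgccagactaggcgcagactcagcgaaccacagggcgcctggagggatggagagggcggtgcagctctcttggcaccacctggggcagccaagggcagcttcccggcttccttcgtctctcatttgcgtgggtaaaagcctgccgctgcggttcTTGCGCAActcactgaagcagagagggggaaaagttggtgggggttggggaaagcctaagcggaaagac

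Il6 held an NF-kB match at -43 to -35, a C/EBP match on the minus strand at -128 to -121 and an AP-1 match at -249 to -243. Ptgs2 held the C/EBP palindrome TTGCGCAA at -69 to -62, and Lif an AP-1 match at -228 to -222. No motif of the 6 searched was in all 3 windows of these genes. The window of the first Il1rn start, not shown, held an AP-1 match at -141 to -135. Over all RefSeq windows 8.62% held GGANNNTCC and 7.81% TGANTCA, each its own reverse complement. The other 2 motifs, STAT (TTCNNNGAA) and CRE (TGACGTCA), matched none of the windows of the 9 genes that the promoter table lists.

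Nos2 and Tnf gave no usable level. Nos2 (chromosome 11, 78920787 to 78960254, plus strand) had 9 and 4 counts in wild type, 7 and 2 in heterozygous and 10 and 2 in knockout, at most 0.303 CPM, and the genotypes overlapped. It did not reach the count filter. Tnf (chromosome 17, 35199381 to 35202007, minus strand) is listed at 0 in every library, and so were its neighbours. A run of 25 coding genes in a row, from Vwa7 to Atp6v1g2 over 222 kb, was at 0, among them Bag6, Csnk2b, Prrc2a and Clic1, which most cell types express and which were picked here after their values were seen. Within 500 kb of Tnf 55.7% of coding genes were at 0, against 23.2% of all 20460 coding genes. The 0 of Tnf can therefore not be read as absence of its RNA, and the same holds for the macrophage gene Aif1 and for Ltb and Ddah2, which lie in this run and belong to lists used below.

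**Figure D4:**
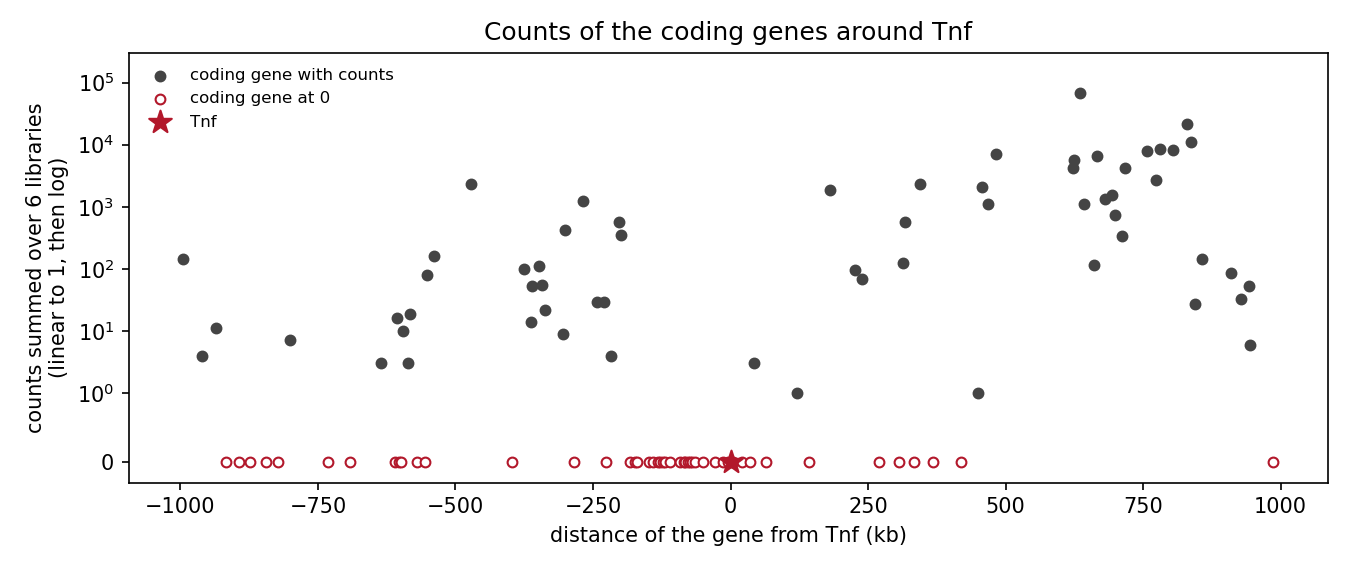
Counts summed over the 6 libraries for each coding gene within 1000 kb of Tnf, against its distance from Tnf; open circles are genes at 0 and the star is Tnf. Around Tnf an unbroken run of 25 coding genes is at 0.

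Per kilobase of exon the order of the genes differed between genotypes. In wild type Il33 led at 79.9 ± 3.75 CPM per kilobase, ahead of Il1rn at 46.0 ± 0.0707, Ptgs2 at 11.5 ± 0.424 and Il1rl1 at 5.53 ± 0.0636 (SD, n = 2). In CPM Il1rn was above Il33 there, at 255 ± 0.216 and 231 ± 10.7 (SD, n = 2). The exon lengths of 5535 bases for Il1rn and 2886 for Il33 cover all their transcripts, so this order depends on which transcripts were present. In knockout Il1rn led at 59.3 ± 1.34, ahead of Il1rl1 at 15.4 ± 0.495, Ptgs2 at 13.2 ± 0.354 and Il33 at 8.08 ± 0.608 (SD, n = 2). In heterozygous the order was Il1rn at 40.0 ± 1.91, Il33 at 20.9 ± 0.495, Il1rl1 at 11 and Ptgs2 at 5.59 ± 0.099 (SD, n = 2). Lif, Il6, Il1b and Nos2 were below these in every genotype, and Lif and Il6 overlapped in knockout, at 1.35 ± 0.148 and 1.66 ± 0.516 (SD, n = 2).

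Il1r1 and Il1rap, the receptor chains of the IL-1 arm, were above wild type in both other genotypes. Il1r1, the signalling receptor of IL-1, went from 26.2 ± 0.667 CPM in wild type to 68.3 ± 7.24 in heterozygous and 43.5 ± 2.78 in knockout (SD, n = 2; log2 1.39 and 0.73 against wild type, edgeR, adjusted p = 6.51e-20 and 4.15e-11). Il1rap, the chain shared by IL-1 and IL-33, went from 37.8 ± 1.80 to 82.7 ± 3.63 and 50.7 ± 0.889 CPM (SD, n = 2; log2 1.13 and 0.42, edgeR, adjusted p = 2.15e-19 and 4.01e-07). Both were highest in heterozygous, where Il1rn was lowest. The decoy receptor Il1r2 had 7, 6 and 4 counts in the 3 genotypes and was not in the fit. Among 17 tested genes of IL-1 and IL-33 receptors and signalling, 14 rose and 0 fell in knockout against wild type, 5 rose and 2 fell in heterozygous, and 10 rose and 2 fell in knockout against heterozygous, with median log2 fold changes of 0.42, 0.04 and 0.34. The shares past the threshold were 82.4%, 41.2% and 70.6%, beside 38.0%, 38.9% and 37.1% of all genes, so the heterozygous count was near the background. Il18rap, a receptor chain of IL-18, rose by 1.19 log2 in knockout and 0.84 in heterozygous, and Irak3, an inhibitor of IL-1 receptor signalling, by 0.59 and 0.66. The inflammasome sensor Nlrp3 rose in knockout against wild type by 0.43 and against heterozygous by 0.41, and was at 0.02 of heterozygous over wild type (edgeR, adjusted p = 0.828).

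The receptor genes Il6st, Lifr, Osmr and Il11ra1 were highest in heterozygous, where Il6 and Lif were lowest. Of 14 tested genes of the family, 11 rose and 0 fell in heterozygous against wild type (median log2 0.29), 6 rose and 3 fell in knockout against wild type (0.08), and 3 rose and 7 fell in knockout against heterozygous (-0.22). These are 78.6%, 64.3% and 71.4% of the list, beside 38.9%, 38.0% and 37.1% of all genes. The wild-type level of Il6st, the shared chain gp130, was 1330 ± 12.1 CPM, against 2200 ± 17 for heterozygous and 1180 ± 14.7 for knockout (SD, n = 2), changes of 0.73 and -0.17 log2 against wild type (edgeR, adjusted p = 5.46e-30 and 3.68e-09). Lifr, the receptor of LIF, rose by 0.89 in heterozygous and 0.65 in knockout, and Il6ra, the IL-6 receptor, by 0.23 and 0.43. Osmr, the oncostatin M receptor, rose by 0.32 in heterozygous and fell by 0.14 on the log2 scale in knockout. Jak1, a kinase bound to gp130, rose by 0.39 and 0.34, and Il11ra1, the IL-11 receptor, rose by 0.71 in heterozygous and was at -0.10 in knockout (edgeR, adjusted p = 0.202).

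The TNF receptors changed by 0.31 on the log2 scale or less. The wild-type level of Tnfrsf1a was 249 ± 1.06 CPM, against 260 ± 1.9 for heterozygous and 263 ± 0.592 for knockout (SD, n = 2), and of the 3 comparisons only knockout over wild type passed, at 0.08 log2 (edgeR, adjusted p = 0.0402). Tnfrsf1b rose by 0.31 in heterozygous and 0.29 in knockout, and the kinase Ripk1 by 0.31 and 0.36. Of 16 tested genes, 10 rose and 1 fell in knockout against wild type, 4 rose and 1 fell in heterozygous, and 5 rose and 1 fell in knockout against heterozygous (median log2 0.22, 0.07 and 0.07). The share was 68.8% in knockout against wild type, beside 38.0% of all genes, while the 31.2% and 37.5% in the other comparisons were below or near the 38.9% and 37.1% of all genes. Tnfrsf11b, which encodes osteoprotegerin, a decoy for RANKL, was lowest in heterozygous like Ptgs2, with -0.63 in heterozygous against wild type and 0.61 in knockout against heterozygous. Tnfsf11, which encodes RANKL and was picked after its values were seen, had 62, 163 and 190 counts in wild type, heterozygous and knockout. It rose 2.94-fold in heterozygous and 3.1-fold in knockout against wild type (edgeR, adjusted p = 0.000946 and 0.000487). Tnfaip3, an inhibitor of NF-kB signalling, and Tnfaip8 rose in knockout by 0.35 and 0.33 against wild type and by 0.43 and 0.40 against heterozygous.

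Most of the NF-kB genes were higher in knockout than in either other genotype. Of 13 tested subunits, kinases and inhibitors, 9 rose and 0 fell against wild type and 8 rose and 0 fell against heterozygous, while 0 rose and 2 fell in heterozygous against wild type (median log2 0.23, 0.31 and -0.08). The shares were 69.2%, 61.5% and 15.4%, beside 38.0%, 37.1% and 38.9% of all genes. Nfkbia, the inhibitor that NF-kB itself induces, rose by 0.30 against wild type and 0.40 against heterozygous, the inhibitor gene Nfkbie by 0.52 and 0.32, and the kinase gene Chuk by 0.29 and 0.37. Nfkb2 and Nfkbiz were the genes that fell in heterozygous, each by 0.23 on the log2 scale, and Nfkb2 rose by 0.31 in knockout against heterozygous.

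**Figure D5:**
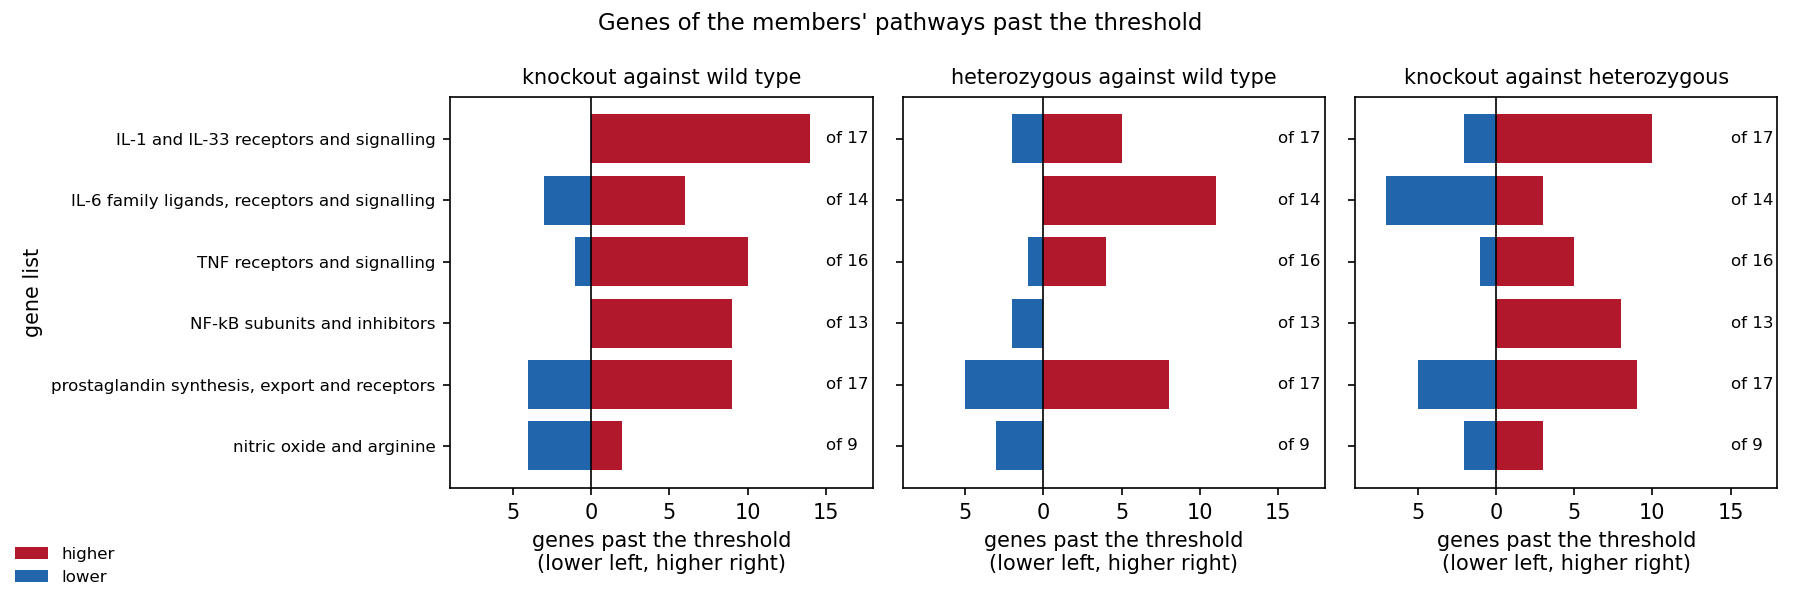
Number of genes in each of 6 lists of the members' pathways that passed the threshold, lower to the left and higher to the right, with the number tested beside each bar, in the 3 comparisons. In knockout against wild type 14 of 17 genes of IL-1 and IL-33 signalling are higher, and in heterozygous against wild type 11 of 14 of the IL-6 family.

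Prostaglandin genes went both ways. In knockout against wild type 9 of 17 rose and 4 fell, in heterozygous 8 rose and 5 fell, and in knockout against heterozygous 9 rose and 5 fell (median log2 0.37, 0.13 and 0.15). The shares were 76.5%, 76.5% and 82.4%, beside 38.0%, 38.9% and 37.1% of all genes. Ptges, the synthase that turns the product of Ptgs2 into prostaglandin E2, fell from 70.3 ± 3.24 CPM in wild type to 52.4 ± 0.0272 in heterozygous and 39.1 ± 5.18 in knockout (SD, n = 2; log2 -0.42 and -0.85, edgeR, adjusted p = 1.37e-06 and 5.02e-14). The prostacyclin synthase Ptgis fell with it, by 0.57 and 0.98 on the log2 scale, and Hpgd, which degrades prostaglandins, by 0.19 and 0.39. The constitutive cyclooxygenase Ptgs1 rose in knockout by 0.75 and was at 0.20 in heterozygous (edgeR, adjusted p = 0.124), and Hpgds, the prostaglandin D2 synthase of blood cells, rose by 0.52 and 0.39. The transporter Slco2a1 rose by 1.16 in knockout and 0.27 in heterozygous. Ptgfr, the prostaglandin F2 alpha receptor, rose from 4.0 ± 0.0798 CPM to 29.3 ± 2.21 in heterozygous and 12 ± 2.32 in knockout (SD, n = 2; log2 2.87 and 1.58, edgeR, adjusted p = 2.42e-21 and 1.78e-12). Among receptors of prostaglandin E2, Ptger4 rose by 0.48 in knockout, and Ptger2 was at 0.35 (edgeR, adjusted p = 0.499). Alox5ap, the leukotriene cofactor, rose by 0.46 in knockout and 0.13 in heterozygous.

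Genes of nitric oxide and arginine, the pathway of Nos2, went both ways. Of 9 tested, 2 rose and 4 fell in knockout against wild type, 0 rose and 3 fell in heterozygous, and 3 rose and 2 fell in knockout against heterozygous (median log2 -0.17, -0.25 and 0.16). The shares were 66.7%, 33.3% and 55.6%, beside 38.0%, 38.9% and 37.1% of all genes, so the heterozygous count was below the background. Ddah1, which clears an inhibitor of nitric oxide synthases, fell from 241 ± 3.41 to 143 ± 6.14 and 112 ± 1.09 CPM in heterozygous and knockout (SD, n = 2; log2 -0.75 and -1.10). Ass1, which regenerates arginine, fell by 0.67 and 0.49 on the log2 scale, and the arginine transporter Slc7a1 by 0.45 and 0.17. Slc7a2, a further arginine transporter, fell by 0.31 in knockout, where Gch1, which makes a cofactor of nitric oxide synthases, rose by 0.53. The arginase gene Arg1 had 15, 6 and 4 counts in wild type, heterozygous and knockout and was not in the fit. Arg2, the other arginase gene, had 11, 14 and 52 counts and rose 4.67-fold in knockout against wild type (log2 2.23 ± 0.80, SE; edgeR, adjusted p = 0.0245), the widest change of this list, and was picked after its values were seen. The knockout libraries were at 0.364 and 1.17 CPM and the wild-type libraries at 0.147 and 0.176. The size of this change thus rests on few reads and on which knockout library is read.

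Genes of like pattern were sought for the 3 members with the widest range, by the distance between centred log2 CPM values over the 6 libraries, among 9576 candidates. Nearest to Il33 were Piezo2, a stretch-activated channel, at a distance of 0.68, Adam12, a metalloprotease, at 0.88, and Ltbp4, which binds latent TGF-beta, at 1.05. Piezo2 went from 143 ± 0.184 CPM in wild type to 25.5 ± 1.90 in heterozygous and 9.70 ± 1.16 in knockout (SD, n = 2). Nearest to Il6 were the interferon-inducible genes Ifi204, Ifi44 and Usp18, at 0.47, 0.49 and 0.51, and Ifi204 went from 52.7 ± 0.995 to 24.1 ± 3.25 and 73.8 ± 1.33 CPM (SD, n = 2). Nearest to Il1b were Stat4, Pilrb2 and Nlrc5, at 0.80, 0.88 and 0.89, over values of Il1b that rest on few reads. These distances carry no test.

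Markers of other cells also moved between the genotypes. The summed level of 18 macrophage markers lay between 14900 and 15200 CPM in wild type, 17900 and 18000 in heterozygous and 17100 and 17300 in knockout, and 11 of its 17 tested genes rose and 1 fell in knockout against wild type. That of 12 fibroblast markers lay between 38100 and 38700 CPM in wild type, 44900 and 46100 in heterozygous and 23800 and 23900 in knockout, and most of it came from Fn1 and the collagen genes. Of the 12, 5 rose and 7 fell in knockout against wild type, and 10 rose and 1 fell in heterozygous. The 5 were Dcn, Lum, Pdgfra, Mmp2 and Fap, with log2 fold changes of 0.82, 1.01, 0.96, 0.66 and 1.05. Single markers had the orders of the IL-33 genes. Of the 17 macrophage markers in the fit, 4 rose both from wild type to heterozygous and from there to knockout, as Il1rl1 did: Cd68 at 610, 713 and 893 CPM, Itgam at 553, 687 and 846, Ptprc at 167, 205 and 271, and Cd14 at 271, 324 and 348. Of the 12 fibroblast markers only Thy1 fell at both steps, as Il33 did, at 369, 327 and 165 CPM, while 10 of the 12 rose in heterozygous. None of the macrophage markers fell at both steps. Cx3cr1, a macrophage marker, was at 139, 32.6 and 29.3 CPM, with no second step past the threshold (edgeR, adjusted p = 0.0684). These markers were picked after their values were seen, and their part in the changes of Il33 and Il1rl1 was not tested. The 10 markers of epithelial and arachnoid barrier cells summed to 30.2 CPM in both wild-type libraries, 2.07 to 3.81 in heterozygous and 3.72 to 5 in knockout, mostly from Perp at 28.7 ± 0.537, 2.16 ± 0.569 and 2.77 ± 0.194 CPM (SD, n = 2), with Cdh1 next at a mean of 0.956 CPM or less in each genotype, and Krt5, Krt14 and Cldn7 were at 0. Of the 4 in the fit, 1 rose and 1 fell in knockout against wild type, and 0 rose and 2 fell in heterozygous. Dpp4 was the one that rose, from 3 counts in wild type to 29 in knockout (log2 3.19; edgeR, adjusted p = 0.0263). The summed levels, which rest mostly on Perp, were highest in the genotype where Il33 was highest, and their part in the fall of Il33 was not tested. Of the 11 markers of mast cells and type 2 lymphoid cells, known carriers of ST2, Cpa3, Fcer1a, Ms4a2, Tpsb2, Cma1, Cd3e and Cd3d were at 0 in every library. Their sum was 16.2 to 17.7 CPM in wild type, 9.46 to 10.1 in heterozygous and 20.8 to 21.8 in knockout, mostly from Il7r at 16.4 ± 0.859, 9.55 ± 0.320 and 20.5 ± 0.537 CPM (SD, n = 2), with Gata3 next and below 1 CPM. The 9 neutrophil markers summed to 16.7 to 24.6 CPM over all libraries, mostly from Csf3r at 17.5 ± 1.2, 18 ± 0.446 and 24.2 ± 0.438 CPM (SD, n = 2), with Camp next and below 1 CPM, and with S100a9, Ly6g, Mpo, Elane, Ltf and Retnlg at 0. The 10 endothelial markers summed to 40.9 to 42.1 CPM in wild type, 32.3 to 35.6 in heterozygous and 77.7 to 81.4 in knockout, with Cldn5 at 0. Of the 7 in the fit, 3 rose and 2 fell in knockout against wild type, and 1 rose and 3 fell in heterozygous. The highest over all libraries were Vwf at 20.4 ± 0.745, 21 ± 1.59 and 54.8 ± 1.71 CPM and Kdr at 7.33 ± 0.222, 5.08 ± 0.607 and 18.7 ± 0.454 CPM (SD, n = 2). The junction genes Cdh5 and Esam, picked after their values were seen, were below wild type in both other genotypes. Unlike Il33, they did not fall further from heterozygous to knockout. Pecam1, picked in the same way, rose in knockout against wild type, from 6 to 53 counts (log2 3.11; edgeR, adjusted p = 0.00261). Cdh5 was at 6.54 ± 0.306, 0.733 ± 0.252 and 0.993 ± 0.461 CPM (SD, n = 2), with log2 -3.14 in heterozygous and -2.71 in knockout, and Esam had 156, 2 and 8 counts. Of the 7 nucleus pulposus and notochord markers in the fit, 2 rose and 3 fell in knockout against wild type. In heterozygous 3 rose and 3 fell, with Sox9 at log2 1.85 and Krt19 at -4.39. Over all genes 38.0% and 38.9% passed in these comparisons. The part of these cell markers in the changes of the inflammatory genes was not tested.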

How the data were processed

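RNA was sequenced from 6 libraries of cultured nucleus pulposus cells. The deposited table gives raw read counts per gene symbol, as judged from its whole numbers and unequal totals. Per the submitters' processing notes, HISAT2 version 2.0.4 and the build GRCm38 were used. The sources used here give no counting tool, annotation or strand setting, so reads of overlapping or antisense genes cannot be told apart. Columns were matched to libraries by title.

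Counts were tested with edgeR version 4.0.16 (R version 4.3.3) in a quasi-likelihood fit with robust estimation over all 6 libraries, with genotype as the only term and 3 residual degrees of freedom. TMM factors and edgeR's default count filter by genotype were used, and Chsy3 was kept in any case. P-values are two-sided and adjusted by Benjamini-Hochberg over all 16061 genes, with a threshold of 0.05. Log2 CPM for the distance between patterns used a prior count of 2 and candidates with a mean of at least 3, a known symbol, and a place in the fit. The procedure was tested on simulated data. Libraries of the same genotype differed by more than counting noise (chi-square per gene 3.56 to 3.72), so none was treated as a duplicate.

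Exon lengths are unions of GENCODE release M21 exons on GRCm38, which placed all 10 genes. Promoters are RefSeq windows on GRCm38.p6, 250 bases before to 50 after a start, found for 9 of the 10 genes. Gene order around each gene came from the RefSeq gene table of that build.

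The 10 genes, the 6 pathway lists and the 7 marker lists were chosen with earlier results of these data known. From each pathway list the text names up to 3 genes with the smallest p-values past the threshold in a comparison and the direct partners of the 10 genes. From marker lists it names genes at 0 and the 2 highest by mean CPM over all libraries. Any other marker named was picked after its values were seen. The ratio of Il33 to Il1rl1 and the check of genes around Tnf were added after the data were seen. Alternatives were RLE factors, DESeq2 version 1.42.0, no filter, a stricter filter (1 CPM in 4 libraries), only the 4 libraries compared, a replicate block, no robust estimation, leaving out each library and, chosen after seeing the data, library totals alone.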

Additional observations from a re-analysis of the deposited data

How the results depend on the processing

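Under the 14 alternatives the 7 genes in the fit gave 291 values, of which 289 kept their side of the threshold and 2 lost it, both for Ptgs2 in knockout against wild type. No call changed direction. Leaving out each library in turn gave 3 to 4 genes past the threshold in knockout against wild type, and 6 in each of the other comparisons. Over all genes the counts then ranged from 5064 to 6261, 5186 to 6228 and 4823 to 6057 in the order knockout against wild type, heterozygous against wild type and knockout against heterozygous. With 1 library left in a genotype, that library is assumed to vary like the others. The replicate numbers do not pair the libraries (correlation of deviations -0.025, 0.009 and 0.022), and the replicate block gave 6080, 6222 and 5913 genes and the same 4, 6 and 6 counts among the 7. Scaling by library totals moved the share of calls that were higher in knockout against heterozygous from 51.6% to 64.7%, and changed no call among the 7. The decrease of Chsy3 in heterozygous did not pass with DESeq2 (adjusted p = 0.119) or without any of the wild-type or heterozygous libraries (edgeR, adjusted p = 0.0923 to 0.181). Il1b could not be fitted under the stricter filter. Motif matches in the promoters numbered 17 in the whole window and 15 before the start.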

Other observations

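The stretch of genes at 0 around Tnf, found on chromosome 17 between 35016360 and 35238767, had no counterpart around Il1a, Il1b and Nos2, which had 1, 92 and 34 counts over the 6 libraries. Within 500 kb of Il1a, Il1b and Nos2, 0 of 13, 0 of 12 and 0 of 15 coding genes were at 0 in every library, with medians of 2109, 3089 and 4219 counts over the 6 libraries. Around Tnf 34 of 61 coding genes were at 0, with a median of 0. Genes with many reads could have sparse neighbours too. Around Il1rn, with 52806 counts, 4 of 11 coding genes were at 0, with a median of 20. Around Il1rl1, with 14319 counts, 1 of 9 was at 0, with a median of 17. Whether the low counts of Il1a, Il1b and Nos2 reflect low RNA was not tested. On the far side of the stretch Flot1, at 624 kb from Tnf, had 5659 counts and Tubb5, at 634.6 kb, had 66975. The class I gene H2-D1, at 63.7 kb from Tnf, was also at 0.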
